A study of Mus musculus with 18 samples.

Results

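DN cells, the thymocytes sorted as lacking both the CD4 and the CD8 co-receptor, were compared between mice given an antibody against DLL4 (3 samples) and mice given an isotype control antibody (3 samples). The samples were chosen by their titles, which gave 6 of the 18 samples of the series, and the others were 7 samples of total thymocytes and 5 of DN1 cells, the CD44+ CD25- subset of DN cells. All mice were of the strain C57BL/6, and thymi were taken 2 weeks after the injection. The antibody clone, its dose and the age and sex of the animals are not given in the sources used here, and the sort is described by CD4 and CD8 alone, with no marker of other lineages named. Thymi of 4 mice were taken for each antibody, but the labels do not say which mouse gave which sample. The p-values therefore measure the spread between samples, which may be partly technical, and the 3 populations may share mice.

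DLL4 is a ligand that thymic epithelial cells present to Notch1 on incoming progenitors. Binding leads to cleavage of the receptor, whose intracellular part joins RBPJ and a Mastermind protein on DNA and switches on genes such as Hes1, Dtx1 and Ptcra, the last encoding the chain that partners with the rearranged beta chain in the pre-T receptor. In the thymus this signal is known as the one that directs progenitors to the T lineage, and progenitors that lack it are known to give rise to B cells and dendritic cells there.

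RNA was amplified in 2 rounds and measured on 1-colour Agilent whole-genome arrays, 1 array per sample. A level is the log2 intensity minus the 75th percentile of its array, so a level of 0 equals that percentile, and levels are compared between samples for the same gene only. The 75th percentile itself was 887.7, 1077 and 741.3 intensity units on treated arrays 1, 2 and 3 and 260.2, 337.9 and 675.5 on control arrays 1, 2 and 3, so every control array was dimmer than every treated one, and control arrays 1 and 2 were the dimmest. The mean of this percentile was 902 on the treated and 425 on the control arrays (exact permutation test of treated against control, two-sided, p = 0.1, the smallest that 3 against 3 can give). Spots well above background made up 63.7% to 67.2% on treated arrays and 79.4%, 74.2% and 59.9% on control arrays 1, 2 and 3. The span from the 5th to the 95th percentile was 13.07 to 13.21 on the log2 scale on treated arrays and 11.04, 11.89 and 12.5 on the controls. The median gene had an SD of 0.53 across the treated and 1.02 across the control arrays. On control arrays 1 and 2 the erythroid gene Hba-a1 stood at 9.25 and 9.65, against 2.63 on control array 3 and 1.96 to 3.98 on the treated arrays. The endothelial receptor genes Kdr (3.31 and 0.94) and Tek (2.94 and 2.72) were likewise higher on those arrays than on control array 3 (-6.68 and -3.97) and on any treated array (at most -5.2 and -3.76). For most gene groups below, the median or the calls are also given without these 2 control arrays, as are the values of many single genes. Their part in any result below, and that of array strength, was not tested beyond that.

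The clearest pattern was a rise of genes of B cells, antigen presentation, dendritic cells and cytotoxic cells in DN cells after anti-DLL4. A smaller set of T-lineage genes, among them Notch3, Ptcra and Tcf7, fell. Each of these named falls lost its call in some of the fits that left out 1 array. On slide 3, the only slide with both groups, the differences of Notch3, Ptcra and Tcf7 were 0.37, 0.06 and -0.76. Of 20855 genes tested, 570 (2.73%) were higher and 326 (1.56%) lower in treated DN cells at a Benjamini-Hochberg adjusted p under 0.05 (limma), or 4.3% together, and 6395 (30.7%) passed at an unadjusted p under 0.05. All 3 treated arrays lay above all 3 controls for 9.64% of genes measured on the 6 arrays, and below them for 22.9%. Differences are given on the log2 scale relative to the median over the tested genes, which was itself -0.68. The p-values and calls test the unshifted values, so a small positive difference on this scale can be negative before the shift. The split of calls moved with the scaling, to 922 higher and 301 lower (75.4% higher, against 63.6%) with quantile normalization and to 780 and 248 (75.9%) with arrays centred on the median of tested genes. The called rises had a median of 4.09, and 481 of the 570 genes were well above background on all 6 arrays. The called falls had a median of -2.72, and 122 of the 326 genes were well above background on no treated array, so their size is a bound. On control array 3 alone, all 570 genes that rose were below all 3 treated arrays, and 322 of the 326 genes that fell were above them. Control array 3 was part of the fit that made these calls, so this order is no independent support. Without control arrays 1 and 2, where 1 control is assumed to vary like the other groups, 128 of 18030 genes were higher (0.71%) and 5 lower (0.0277%). At an unadjusted p under 0.05 there were then 1638 (9.08%). Of the original calls, 97 of 570 and 3 of 326 were made again, and all 570 rises and the 197 falls still measured kept their sign. Leaving out control array 3 instead gave 1327 higher and 4486 lower. Because whole populations were measured, more cells of a type and more RNA per cell cannot be told apart.

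**Figure D1:**
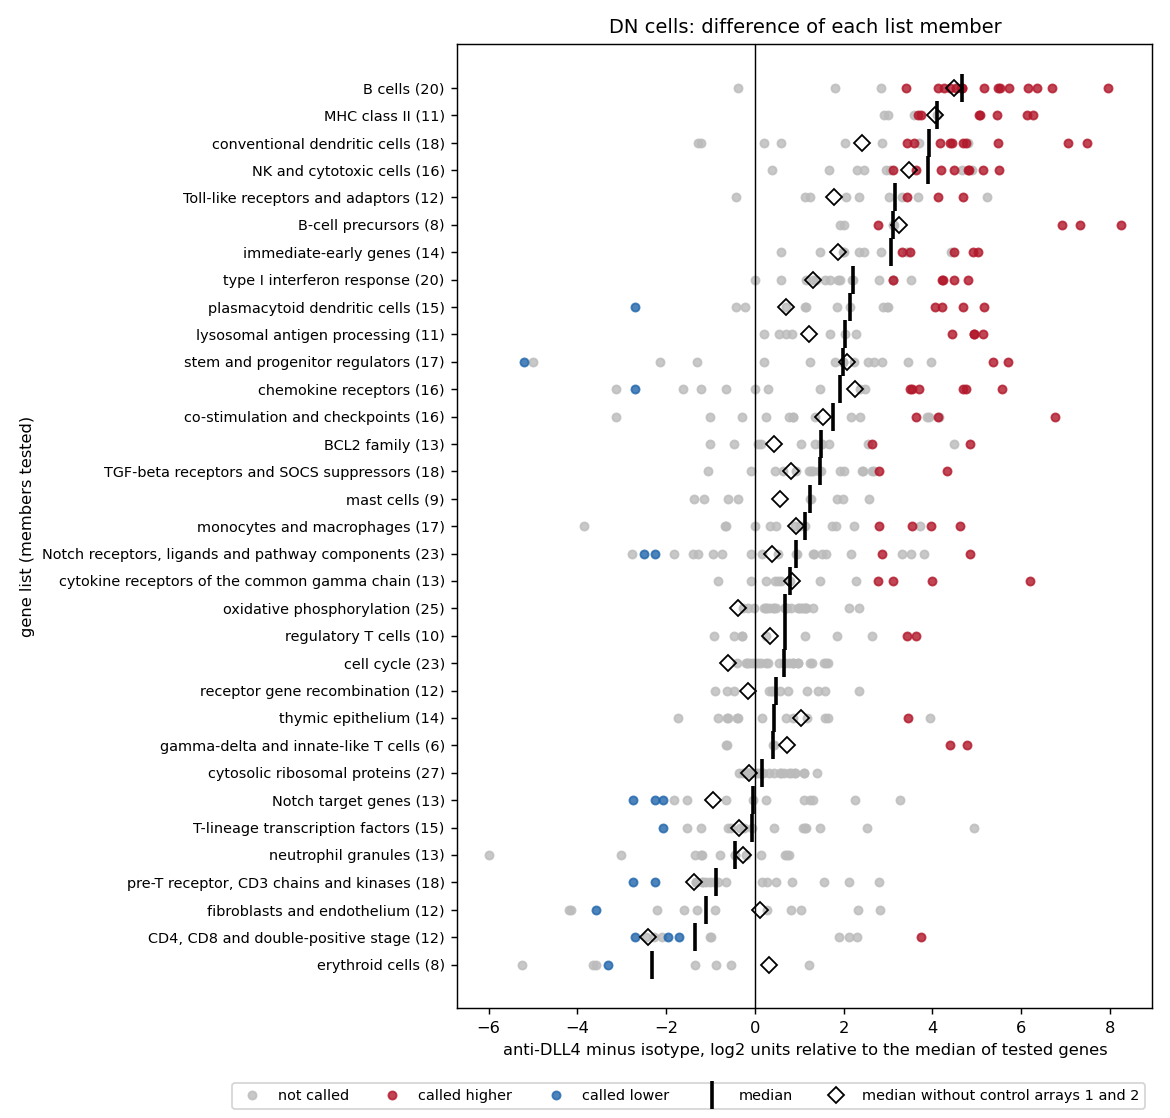
Difference in DN cells, anti-DLL4 minus isotype control, for each tested member of the gene lists (x axis, log2, relative to the median over tested genes; 1 row of points per list, red if called higher, blue if called lower and grey if not called at adjusted p under 0.05 in limma; black bar, list median; open diamond, median without control arrays 1 and 2). Members of the B-cell, MHC class II and cytotoxic lists lie mostly to the right of 0, with medians of 4.66, 4.1 and 3.91, and ribosomal protein genes lie close to 0, with a median of 0.16.

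Among the ligands of the pathway, Dll4 itself was at -2.59, -4.51 and -2.77 on the treated arrays and -4.82, -5.37 and -7.62 on the controls, where it was well above background on 1 array. The treated arrays lay above the controls, and the difference of 3.32 ± 0.85 (SE) missed the threshold (adjusted p = 0.0811, limma), while 1 of its 3 probes had the opposite sign (-0.04). Dll1, another ligand gene, stood at -1.41, 0.61 and -1.78 against -4.16, -5.3 and -5.6 and rose by 4.84 ± 0.87 (adjusted p = 0.0135). That call was lost without treated array 2 (0.0614) or control array 2 (0.0543). Psen2, a catalytic subunit of the gamma-secretase that releases the Notch intracellular domain, rose by 2.87 ± 0.56 (adjusted p = 0.0388), a call that held only without control array 3 when any 1 array was left out (0.0895 to 0.159 without the others). Maml3, one of the Mastermind co-activators, fell by 2.49 ± 0.75 on this scale (adjusted p = 0.0264). Its call was lost without treated array 1 (0.0623), 2 (0.0849) or 3 (0.0868) or control array 1 (0.103). Of the 23 receptor, ligand and pathway genes tested, 2 rose (8.7% against 2.73% over all tested genes), 2 fell (8.7% against 1.56%) and 19 did not pass. The median difference was 0.93 against 0 over all tested genes. The median was 0.39 without control arrays 1 and 2, and limma then called none (6 at an unadjusted p under 0.05). Rbpj, the DNA-binding partner, differed by 0.93 ± 0.58 (adjusted p = 0.784).

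Among the receptors, Notch3 stood at 1.99, 3.83 and 1.27 on treated arrays 1, 2 and 3 and at 4.31, 5.84 and 5.71 on the controls. The groups did not overlap, with treated array 2 close to control array 1. The fall of 2.25 ± 0.7 passed the test (adjusted p = 0.0292, limma), and the call was lost without treated array 1 (0.112), treated array 3 (0.129) or control array 2 (0.121). With the slide as a block the difference was -1.77 (0.0941), and without control arrays 1 and 2 it was -2.99 (0.202). On slide 3, the only slide that held both groups (treated array 2 and control array 1), it was 0.37. Notch1, the receptor that early progenitors use, was at -0.6, 1.76 and -0.61 against 3.04, 2.28 and 2.74, again without overlap, and its difference of -1.82 ± 0.75 did not pass (adjusted p = 0.0693).

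Of 13 Notch target genes tested, 3 fell (Tcf7, Notch3 and Ptcra) and none rose, a share of 23.1% lower against 1.56% over all tested genes. The median difference of the list was -0.05, and it turned to 0.21 with normexp background correction and to 0.46 with the slide as a block. It was -0.94 without control arrays 1 and 2, where limma called none of the 13 (4 at an unadjusted p under 0.05). Ptcra stood at 0.47, 2.06 and -1.92 on the treated arrays and 2.85, 4.06 and 3.99 on the controls. Its fall of 2.75 ± 0.89 (adjusted p = 0.0417) was lost without treated array 1 (0.103) or 3 (0.153) or control array 1 (0.0682) or 2 (0.144), and with the slide as a block the difference was -2.13 (0.105). On slide 3 the difference was 0.06, and without control arrays 1 and 2 it was -3.44 (0.321). Tcf7, which encodes the T-lineage factor TCF1, stood at 4.6, 5.83 and 3.95 against 7.44, 7.46 and 7.71. Treated array 2 was the highest of the treated arrays for each of these genes, and all 3 controls lay above it. Tcf7 fell by 2.07 ± 0.59 (adjusted p = 0.0158), a call lost without treated array 1 (0.0673) or 3 (0.0877) or control array 2 (0.053). The difference of Tcf7 was -2.56 (0.216) without control arrays 1 and 2. The genes most directly read as Notch output did not pass the test: Hes1 differed by 1.31 ± 0.68, Dtx1 by -0.64 ± 0.72 and Nrarp by 1.25 ± 0.96 (adjusted p = 0.529, 0.222 and 0.703), with 2 of the 3 probes of Hes1 of opposite sign (lowest -0.15). Il2ra, which encodes the CD25 chain used to stage DN cells, differed by 0.25 ± 0.71. Before the median shift it was -0.43, the value that limma tested (adjusted p = 0.696). Gata3 differed by -1.53 ± 0.89 (0.12), with treated array 2 (5.21) inside the range of the controls (4.91 to 5.94).

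**Figure D2:**
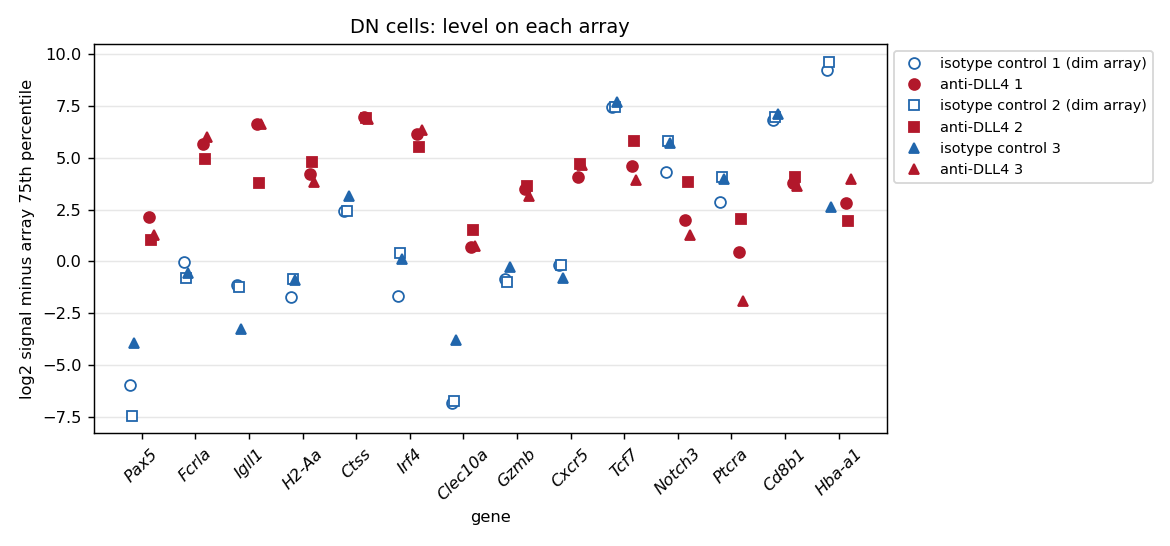
Levels of selected genes on each of the 6 DN arrays (y axis, log2 intensity minus the array's 75th percentile; 1 point per array, blue for isotype control and red for anti-DLL4, with a symbol per replicate and open symbols for control arrays 1 and 2). Pax5, H2-Aa and Irf4 are separated widely between the groups, while for Notch3 treated array 2 (3.83) lies near control array 1 (4.31).

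Of 18 genes of the pre-T receptor, the CD3 chains and their kinases, 2 fell (Ptcra and Themis, 11.1% against 1.56% over all tested genes) and none rose, and 11 (61.1%, against 30.7%) were below an unadjusted p of 0.05. Limma called none without control arrays 1 and 2, and 10 were below an unadjusted p of 0.05. Themis, an adaptor of T-cell receptor signalling in thymocytes, was at -3.4, -2.58 and -4.8 against -0.29, -1.42 and -0.27 and fell by 2.26 ± 0.74 (adjusted p = 0.0356, limma). That call was lost without treated array 1 (0.0933) or 3 (0.147) or control array 1 (0.125) or 2 (0.0547), and without control arrays 1 and 2 the difference was -2.97 (0.271). The list's median difference was -0.87, and -1.38 without control arrays 1 and 2, but 1.17 on slide 3. The CD3 genes Cd3d, Cd3e and Cd3g lay lower on all 3 treated arrays than on any control, as did 22.9% of all genes, with differences of -1, -1.09 and -1.19 that did not pass (adjusted p = 0.115, 0.0911 and 0.0632). Lck, the kinase of the co-receptors, differed by -0.64 ± 0.57 (0.139). Of 15 T-lineage transcription factor genes, Tcf7 was the only called one (6.67% lower against 1.56%). Bcl11b, which fixes T-lineage identity, differed by -0.6 ± 0.9 (0.332). None of 12 genes of antigen receptor recombination was called, and none had an unadjusted p under 0.05. Rag1 differed by -0.47 ± 0.78 (0.319) and Dntt, terminal transferase, by -0.62 ± 0.63 (0.173).

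Among 12 genes of the later CD4+ CD8+ stage, 3 fell, Aqp11 and Ccr9 among them, and Cd69 rose (25% lower against 1.56% over all tested genes). The median was -1.35, or -2.4 without control arrays 1 and 2, where limma called none (8 at an unadjusted p under 0.05). Aqp11 stood at 3.12, 4.58 and 2.75 on the treated arrays and 5.34, 6.23 and 6.76 on the controls, a fall of 1.95 ± 0.55 (adjusted p = 0.0146, limma). The groups did not overlap, the call was lost without treated array 1 (0.0701) or 3 (0.0836) or control array 2 (0.0566), the difference on slide 3 was 0.09, and without control arrays 1 and 2 it was -2.92 (0.076). Ccr9, a receptor for the thymic chemokine CCL25, fell by 2.7 ± 0.88 (0.0425), and lost its call without treated array 1 (0.118) or 3 (0.155) or control array 1 (0.152) or 2 (0.0753). The sort itself was checked on the genes of its markers. Cd4 was at -4.28, -3.53 and -3.89 on treated and -0.75, -2.68 and -3.29 on control arrays (difference -0.98 ± 0.91, adjusted p = 0.221). Cd8a was at 1.4, -1.46 and 0.98 against 2.22, 3.25 and 3.79 (-2.1 ± 0.94, 0.0883), and Cd8b1 at 3.78, 4.09 and 3.64 against 6.82, 6.96 and 7.14 (-2.46 ± 0.85, 0.0504), the other probe of Cd8b1 giving 1.99. Transcripts of the CD8 chains were thus measured in a population sorted as lacking CD8, and were higher on every control array than on every treated one, an order that 22.9% of all genes showed. They move the same way as the T-lineage genes that fell, and their part in those falls was not tested.

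Of 11 MHC class II genes tested, 7 rose and none fell (63.6% against 2.73% over all tested genes), and all 11 had positive differences, with a median of 4.1 (4.05 without control arrays 1 and 2, 4.95 with the slide as a block, 5.78 on slide 3). These genes encode the molecules that present peptides to CD4+ T cells, and their promoters share a module in which the Y box, an inverted CCAAT element bound by NF-Y, is one part. The letters GATTGG, or CCAATC on the other strand, were found in the 250 bases before the start of 8 of the 8 MHC class II genes in the RefSeq promoter table (assembly GRCm38.p6), against 4486 of 27025 genes (16.6%) and 14.6% of 32851 promoters. A match is a description of the sequence, not evidence of binding. The 150 bases before the start are shown for 5 genes that rose, on the coding strand, with the matched letters in capitals, to show the shared letters and their spacing. The windows are chr17:34287824-34287973 (minus strand) for H2-Aa, chr17:34305717-34305866 (plus) for H2-Eb1, chr17:34153041-34153190 (plus) for H2-DMb1, chr17:34145099-34145248 (plus) for H2-DMb2 and chr17:34238755-34238904 (plus) for H2-Ob.
H2-Aa: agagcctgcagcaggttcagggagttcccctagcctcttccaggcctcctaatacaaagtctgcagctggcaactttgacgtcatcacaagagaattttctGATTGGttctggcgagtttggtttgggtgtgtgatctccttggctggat
H2-Eb1: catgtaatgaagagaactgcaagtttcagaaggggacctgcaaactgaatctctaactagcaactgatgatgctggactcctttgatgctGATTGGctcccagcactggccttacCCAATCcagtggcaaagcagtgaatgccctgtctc
H2-DMb1: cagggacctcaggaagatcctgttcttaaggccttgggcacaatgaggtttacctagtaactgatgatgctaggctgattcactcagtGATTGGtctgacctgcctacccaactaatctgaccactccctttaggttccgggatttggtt
H2-DMb2: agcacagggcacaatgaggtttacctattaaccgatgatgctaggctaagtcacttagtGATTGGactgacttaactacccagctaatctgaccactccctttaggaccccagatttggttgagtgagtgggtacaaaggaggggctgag
H2-Ob: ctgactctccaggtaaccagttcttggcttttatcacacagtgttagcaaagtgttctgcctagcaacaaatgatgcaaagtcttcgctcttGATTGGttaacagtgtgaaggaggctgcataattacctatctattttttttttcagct
The match begins 49 bases before the start in H2-Aa, 60 and again 35 in H2-Eb1, 62 in H2-DMb1, 91 in H2-DMb2 and 58 in H2-Ob.

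H2-Aa, which encodes the alpha chain of I-A, stood at 4.22, 4.8 and 3.84 on the treated arrays and -1.73, -0.84 and -0.92 on the controls. The groups were wide apart, with little spread within each, and the rise was 6.13 ± 0.5 (adjusted p = 6.21e-05, limma), or 5.56 without control arrays 1 and 2 (0.00651). H2-Ab1 and H2-Eb1, for the beta chains, rose by 5.08 ± 0.48 and 5.05 ± 0.5 and remained called without those arrays (both 0.0179). H2-DMb2, whose product helps to load peptides, was at -0.68, -0.5 and -0.68 against -5.42, -5.99 and -7.24 and was well above background on no control array, so it was at least 33.5-fold higher in treated cells. Cd74, the invariant chain gene, was at 8.65, 8.67 and 8.65 against 4.94, 6.09 and 5.95 and rose by 3.68 ± 0.63 (adjusted p = 0.0138). Cd74 lost its call without treated array 1 (0.0525) or 3 (0.0552) or control array 1 (0.0643), and H2-DMb1 without treated array 2 (0.0718) or control array 1 (0.0705) or 2 (0.0566), while the other 5 calls held without any 1 array. Ciita, the co-activator of these genes, was highest on treated array 2 (4.32, against 1.46 and 1.96) and did not pass (4.1 ± 1.32, adjusted p = 0.111).

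Of 11 lysosomal genes of antigen processing, Ifi30, Ctss, Lgmn and Ctsh rose and none fell (36.4% against 2.73% over all tested genes), and all 4 calls held without any 1 array. The median was 2.03, or 1.21 without control arrays 1 and 2, where the first 3 were again called. Ctss, the cathepsin that trims the invariant chain, stood at 7, 6.94 and 6.89 on the treated arrays and at 2.46, 2.46 and 3.14 on the controls, a rise of 4.94 ± 0.46 (adjusted p = 0.000204, limma), or 4.16 (0.0179) without control arrays 1 and 2. The broadly expressed cathepsin genes Ctsb and Ctsd overlapped between the groups, with differences of 0.71 ± 0.59 and 0.84 ± 0.65 (0.979 and 0.883).

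Of 20 B-cell genes tested, 16 rose and none fell (80% against 2.73% over all tested genes), with a median difference of 4.66 (4.48 without control arrays 1 and 2, 4.67 with the slide as a block, 4.78 on slide 3). Averaged over the list, treated arrays 1, 2 and 3 stood at 4.36, 3.98 and 4 and control arrays at 0.34, 0.07 and 0.07. Pax5, which commits lymphoid progenitors to the B lineage, was at 2.16, 1.05 and 1.27 on the treated arrays and -5.96, -7.45 and -3.94 on the controls, where it was well above background on 1 array. The rise was 7.96 ± 0.82 (adjusted p = 0.000225, limma) and 5.79 (0.0207) without control arrays 1 and 2, and the other probe of Pax5 had the opposite sign. Ebf1, which acts with Pax5, rose by 4.4 ± 0.68. Blnk, the linker of B-cell receptor signalling, stood at 7.82, 7.23 and 8.2 against 2.51, 2.43 and 1.89 (6.15 ± 0.75, 0.000769). Tnfrsf13c, the BAFF receptor gene, rose by 5.74 ± 0.6 and Cd79b, a signalling chain of the B-cell receptor, by 4.54 ± 0.53. Cd79a, the partner of Cd79b, overlapped between the groups on its brightest probe (1.8 ± 0.73, 0.298), while its other measured probe gave 6.09. Cr2 and Fcer2a, 2 of the genes of mature B cells, did not pass (4.55 ± 1.39, 0.0998, and 2.84 ± 1.06, 0.177). Among the other members of the list, Ms4a1 rose by 4.13 ± 0.7 (0.0109), Cd22 by 4.68 ± 0.64 (0.00262) and Cd37 by 4.67 ± 0.78 (0.00852). Of the 16 calls, 15 held without any 1 array, 10 with the slide as a block and 8 without control arrays 1 and 2. The other was Bank1, which rose by 3.4 ± 0.73 (0.0481) and lost its call without treated array 1 (0.128), 2 (0.117) or 3 (0.122) or control array 2 (0.128) or 3 (0.0511).

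Of 8 genes of B-cell precursors, 4 rose (Igll1, Vpreb3, Vpreb1 and Il7r), with a list median of 3.12 (3.24 without control arrays 1 and 2), a share of 50% against 2.73% over all tested genes. Vpreb1, a part of the surrogate light chain, stood at 7.53, 4.36 and 7.35 on the treated arrays and -0.62, 0.19 and 0.92 on the controls. Igll1, the other part, stood at 6.65, 3.81 and 6.64 against -1.12, -1.24 and -3.25, and Vpreb3 at 7.92, 6.7 and 8.2 against 2.77, 1.44 and -1.38. Treated array 2 was the lowest of the treated arrays for each of the 3 genes and still above every control. The rises were 6.93 ± 1.08, 8.25 ± 1.5 and 7.34 ± 1.04 (adjusted p = 0.00429, 0.00964 and 0.00216, limma), and without control arrays 1 and 2 Vpreb3 alone stayed called (9.33, 0.00797). Igll1 lost its call without treated array 1 (0.0507) or 3 (0.052). Il7r, the interleukin-7 receptor gene, which early T and B progenitors share, rose by 2.78 ± 0.46 (0.0179) and lost its call without treated array 1 (0.0778) or 3 (0.0942) or control array 1 (0.0582) or 2 (0.0636).

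**Figure D3:**
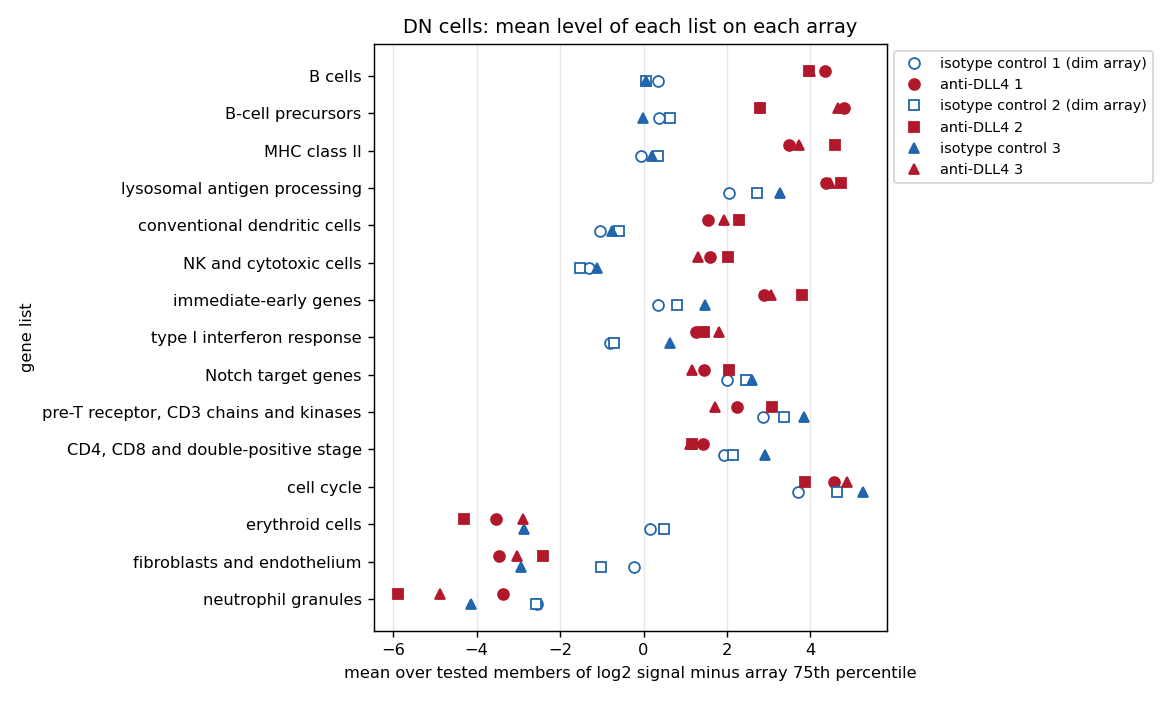
Mean level over the tested members of selected gene lists (y axis) on each of the 6 DN arrays (x axis, log2 intensity minus the array's 75th percentile). There is 1 point per array, blue for isotype control, with open symbols for control arrays 1 and 2, and red for anti-DLL4. Levels were averaged over genes, with no test. The B-cell list stands at 3.98 to 4.36 on treated and 0.07 to 0.34 on control arrays, while the erythroid list is high on control arrays 1 and 2 (0.15 and 0.48) and not on control array 3 (-2.86).

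Of 18 genes of conventional dendritic cells, 10 rose and none fell (55.6% against 2.73% over all tested genes), with a median difference of 3.93, or 2.41 without control arrays 1 and 2, where 5 of the 10 were again called. Clec10a, a lectin of dendritic cells and macrophages, had the largest rise of the list, 7.48 ± 0.82 (adjusted p = 0.000345, limma), or 5.17 (0.0404) without those arrays. Irf4, a factor of dendritic cells and of B cells, stood at 6.15, 5.51 and 6.37 on the treated arrays and -1.69, 0.43 and 0.13 on the controls, a rise of 7.06 ± 0.58 (adjusted p = 6.21e-05, limma). Irf8, which directs another dendritic-cell branch and also acts in B cells, was at 6.26, 6.28 and 6.55 against 2.38, 3 and 2.41 (4.44 ± 0.47, 0.000407). Both remained called without control arrays 1 and 2 (6.23, 0.00247, and 4.3, 0.0179). Ccr7, the receptor of migrating dendritic cells and lymphocytes, was at 4.2, 5.34 and 4.29 against 0.49, 0.59 and 0.46, and Cd83, of mature dendritic cells, at 6.24, 6.62 and 6.17 against 0.61, 1.77 and 2.27. They rose by 4.77 ± 0.5 and 5.47 ± 0.56 (0.000345 and 0.000274). Itgax, the CD11c gene, rose by 4.69 ± 0.93 (0.0244), but it, Sirpa, Id2 and Itgae each lost the call without any 1 of treated arrays 1, 2 and 3 or control arrays 1 and 2 (0.0511 to 0.185). One probe each of Itgax (-1.51) and Sirpa (-0.69) had the opposite sign. Genes of the dendritic lineage that did not pass differed in both directions. Flt3 differed by 0.21 ± 0.57, Xcr1 by -1.21 ± 0.79 and Zbtb46 by -1.27 ± 0.7 (0.589, 0.13 and 0.0998), the last with 1 of 4 probes of that sign and another at 3.74. Batf3 differed by 4.8 ± 1.68, Ccl17 by 3.69 ± 0.98 and Clec9a by 2.86 ± 1.14 (0.123, 0.0822 and 0.199). Of 15 genes of plasmacytoid dendritic cells, Spib, Tlr7, Upb1 and Irf7 rose and Ccr9 fell, a share of 26.7% higher, and the calls of Spib and Tlr7 held without any 1 array. The median was 2.14, or 0.7 without control arrays 1 and 2, where limma called none (5 at an unadjusted p under 0.05). The narrow marker Siglech, well above background on 2 treated arrays and no control array, differed by 3 ± 1.53 (0.3).

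Of 17 monocyte and macrophage genes, Lyz1, Ccr2, Adgre1 and Csf1r rose and none fell (23.5% against 2.73% over all tested genes), with a median difference of 1.14. This median was 0.93 without control arrays 1 and 2, and limma then called none (5 at an unadjusted p under 0.05). Csf1r, the receptor on which macrophages depend, was at 0.79, 1.23 and 1.41 on the treated arrays and -1.52, -2.34 and -2.59 on the controls (3.98 ± 0.87, adjusted p = 0.0454, limma), with 1 of its 3 probes of opposite sign (-0.55). All 4 calls depended on single arrays. That of Csf1r was lost without any 1 array but control array 3 (0.0838 to 0.141), that of Lyz1 without treated array 2 (0.0586) or 3 (0.0907) or control array 1 (0.0532) or 2 (0.0893), that of Adgre1 without treated array 1 (0.0904), 2 (0.0586) or 3 (0.0746) or control array 1 (0.065), and that of Ccr2 without treated array 2 (0.0918) or 3 (0.058) or control array 2 (0.0728). Cd14, Cd68 and the complement genes C1qa, C1qb and C1qc overlapped between the groups. None of 13 neutrophil granule genes was called, and 3 had an unadjusted p under 0.05 (23.1%, against 30.7% over all tested genes). On treated array 1, S100a8, S100a9 and Ltf stood at 0.37, 2.49 and 0.21, against -8.69, -6.47 and -6.13 on treated array 2.

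Of 16 genes of natural killer and cytotoxic cells, 8 rose and none fell (50% against 2.73% over all tested genes), with a median of 3.91. Without control arrays 1 and 2 the median was 3.47 and limma called none (11 at an unadjusted p under 0.05). Gzmb, granzyme B, was at 3.52, 3.66 and 3.17 on the treated arrays and -0.83, -0.98 and -0.26 on the controls (4.82 ± 0.56, adjusted p = 0.000747, limma). Tyrobp, the adaptor of activating receptors, was at 3.69, 3.93 and 3.81 against -1.3, 0.6 and 1.57 (4.19 ± 0.6, 0.00397), and Fasl, the death ligand, at 3.56, 2.91 and 3.12 against -1.59, -0.97 and -0.24 (4.81 ± 0.8, 0.00852). The treated arrays lay close together for these 3 genes and above all controls. Klrc1, an NK receptor gene, was well above background on none of the controls, and its level was at least 8.17-fold higher in treated cells. Il2rb, Klrk1 and Klre1 lost their calls without any 1 array but control array 3 (0.0667 to 0.149), and the other 5 calls held. Other genes of these cells differed less or varied more: Gzma by 0.38 ± 1.23, Prf1 by 2.31 ± 0.88 and Ncr1 by 2.95 ± 0.9 (0.887, 0.213 and 0.117). Probes for near-identical receptor genes of this family can cross-hybridise, so single receptor genes are uncertain.

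Receptors that guide and sustain lymphocytes rose in part. Among 16 chemokine receptor genes, Cxcr5, Ccr7, Cxcr3, Cxcr4, Cxcr6 and Ccr2 rose (37.5% against 2.73% over all tested genes) and Ccr9 fell, with a median of 1.91, or 2.26 without control arrays 1 and 2. Cxcr5, the receptor for the B-cell follicle chemokine, stood at 4.08, 4.71 and 4.67 on the treated arrays and -0.19, -0.18 and -0.82 on the controls (5.56 ± 0.61, adjusted p = 0.000407, limma). It was also called without control arrays 1 and 2 (5.66, 0.0179), and all these calls but those of Ccr2 and Ccr9 held without any 1 array. Among 13 genes of the common gamma chain cytokine family, Il15, Il7r, Il2rb and Il4ra rose (30.8%). The median was 0.79, or 0.84 without control arrays 1 and 2, where limma called none (5 at an unadjusted p under 0.05). Il15, the cytokine that NK cells need, was at 1.34, 0.43 and 1.58 against -5.08, -3.93 and -4.19 (6.2 ± 1.04, 0.007) and alone of these 4 held without any 1 array. Il2rb and Il4ra were not called without any 1 array but control array 3 (0.0511 to 0.109). Among 16 co-stimulation and checkpoint genes, Cd40, Btla and Icos rose (18.8%), with a median of 1.76, or 1.54 without control arrays 1 and 2. Btla, an inhibitory receptor of lymphocytes, was at 4.89, 4.2 and 3.95 against -4.76, -0.72 and 0.26 (6.76 ± 0.94, 0.00209), and stayed called without control arrays 1 and 2 (4.44, 0.029). Cd40, the receptor for T-cell help on B cells and dendritic cells, rose by 4.12 ± 0.51 (0.00139). Pdcd1, which encodes PD-1, and Ctla4 differed by -1.02 ± 0.69 and -0.29 ± 0.74 (0.122 and 0.371).

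A part of the innate sensing and response genes rose. Of 12 Toll-like receptor and adaptor genes, Tlr7, Unc93b1 and Irak4 rose (25% against 2.73% over all tested genes), with a list median of 3.17. That median was 1.79 without control arrays 1 and 2, and Irak4 alone was then called. Unc93b1, which carries nucleic-acid-sensing receptors to endosomes, stood at 5.9, 5.81 and 6.24 on the treated arrays and 1.79, 2.81 and 3.03 on the controls (4.12 ± 0.67, adjusted p = 0.0087, limma). Irak4 lost its call without treated array 1 (0.102), 2 (0.0943) or 3 (0.0585) or control array 2 (0.053), and 1 of its 2 probes had the opposite sign (-0.57). Of 20 type I interferon response genes, 5 rose and none fell (25%), with a median of 2.21. Without control arrays 1 and 2 the median was 1.3 and limma called none (4 at an unadjusted p under 0.05). For these genes control array 3 lay closest to the treated arrays: Oas1a stood at -3.11, -1.33 and 0.75 on control arrays 1, 2 and 3, against 2.58 to 3.34 on the treated arrays, and Rtp4 at 0.65, 2.47 and 4.47, against 5.24 to 5.47. Of the 5 calls, only that of Oas1a held without any 1 array, Ifit3 lost its call without treated array 3 (0.0715), and Oas2, Irf7 and Mx2 lost theirs without any 1 array but control array 3 (0.0621 to 0.192). Of 14 immediate-early genes, Atf3, Egr2, Egr3, Ier2 and Dusp1 rose (35.7%), with a median of 3.07, or 1.87 without control arrays 1 and 2, where Atf3 alone was called. The first 3 held without any 1 array, while the other 2 were lost without any 1 array but control array 3 (0.0576 to 0.21). Atf3, a stress-induced factor, was at 1.7, 2.52 and 2.64 against -2.01, -2 and -1.83 (4.91 ± 0.53, 0.000407), and 1 of the 2 probes of Egr3 had the opposite sign (-0.83). Among 13 genes of the BCL2 family of cell-death regulators, Pmaip1 and Bcl2l1 rose (15.4% against 2.73% over all tested genes). Their rises were 4.85 ± 0.84 and 2.63 ± 0.45 (0.0107 and 0.0252). The median was 1.49, or 0.44 without control arrays 1 and 2, where limma called none (2 at an unadjusted p under 0.05). Pmaip1 lost its call without control array 1 (0.057), Bcl2l1 without treated array 1 (0.0923) or 3 (0.106) or control array 1 (0.0923) or 2 (0.0969).

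Few genes were called in the remaining lists of lymphoid and progenitor genes. Of 17 stem and progenitor regulators, Lyl1 and Hhex rose and Hoxa9 fell (11.8% higher against 2.73% over all tested genes). The median was 1.99, or 2.07 without control arrays 1 and 2, where limma called none (6 at an unadjusted p under 0.05). Lyl1, a factor of early progenitors that B cells also express, stood at 5.88, 6.53 and 6.27 on the treated arrays and 0.83, 0.96 and 2.86 on the controls (5.36 ± 0.62, adjusted p = 0.000568, limma). Hhex was at 2.84, 2.29 and 2.47 against -3.9, -1.97 and -1.6 (5.7 ± 0.91, 0.00561), with 1 of its 3 probes of opposite sign (-0.14), and both calls held without any 1 array. Hoxa9 was well above background on no treated array and at least 8.91-fold lower there, with a call lost without any 1 array but control array 3 (0.0933 to 0.174). Kit, the receptor of the earliest thymic progenitors, differed by 1.24 ± 0.66 (0.567). Of 10 genes listed for regulatory T cells, Icos and Itgae rose (20% against 2.73% over all tested genes), neither of which is restricted to those cells. Il2ra, Ctla4 and Ikzf2 overlapped between the groups. Of 6 genes of gamma-delta and innate-like T cells, Il18r1 and Id2 rose (33.3% against 2.73%), Id2 as given with the dendritic-cell genes. Il18r1 rose by 4.78 ± 0.84 (0.0118), a call lost without control array 1 (0.0574). Zbtb16 and Cd163l1 differed by 0.43 ± 0.89 and 0.4 ± 0.99 (0.872 and 0.87). Of 18 genes of TGF-beta signalling and the SOCS suppressors, Tgfbr2 and Skil rose (11.1% against 2.73%). The call of Tgfbr2 held without any 1 array. That of Skil was lost without treated array 1 (0.0601) or 3 (0.0706) or control array 1 (0.057) or 2 (0.0502). One probe of Tgfbr2 had the opposite sign (-0.47). Without control arrays 1 and 2 the medians of these 3 lists went from 0.68 to 0.35 for regulatory T cells, from 0.42 to 0.72 for gamma-delta T cells and from 1.47 to 0.82 for TGF-beta signalling, and Tgfbr2 alone was called (3.64, 0.0489).

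Housekeeping and proliferation genes showed no calls. None of 23 cell-cycle genes, 27 genes of cytosolic ribosomal proteins and 25 genes of oxidative phosphorylation was called by limma, and 0, 0 and 1 of them had an unadjusted p under 0.05. Their median differences were 0.66, 0.16 and 0.68, and -0.61, -0.14 and -0.37 without control arrays 1 and 2. Each median thus turned sign on the scale relative to all tested genes. The median over tested genes that is subtracted moved as well, from -0.68 to -0.35. The turn is therefore not one of the unshifted values that limma tested. Mki67, the proliferation marker, stood at 7.24, 5.32 and 7.57 on the treated arrays and 6.42, 7.37 and 7.61 on the controls, with overlapping groups (0.26 ± 0.67, adjusted p = 0.685).

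Genes of other cell types a thymic sort can carry moved in part with the control arrays. Of 8 erythroid genes, only Hbb-bt was called (12.5% lower against 1.56% over all tested genes). It fell by 3.3 ± 1.07 (adjusted p = 0.0477, limma), a call lost without treated array 1 (0.104) or 2 (0.148) or control array 1 (0.103) or 2 (0.209). The list's median of -2.32 became 0.31 without control arrays 1 and 2. On these 2 arrays the list averaged 0.15 and 0.48, against -2.86 on control array 3 and -4.31 to -2.89 on the treated arrays. Of 12 fibroblast and endothelial genes, only Pdgfrb was called (8.33% lower against 1.56%). It fell by 3.58 ± 1.01 (0.0277), a call lost without any 1 array but control array 3 (0.0552 to 0.124). It stood at 2.9, 2.74 and 2.66 on the 3 controls alike, whereas the list's median went from -1.1 to 0.11 without control arrays 1 and 2. Of 14 thymic epithelial genes, only Prss16, a thymus-specific serine protease gene, was called higher (7.14% against 2.73% over all tested genes). It rose by 3.45 ± 0.71 (0.0404), and its call was lost without any 1 array but control array 3 (0.0608 to 0.132). With the mean over its probes the difference was -0.48. Epcam, Krt5 and Aire overlapped between the groups. The median of the thymic epithelial list was 0.43, or 1.05 without control arrays 1 and 2. None of 9 mast-cell genes was called, with 2 at an unadjusted p under 0.05 (22.2%, against 30.7% over all tested genes).

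The largest rises were taken among called genes with a name in RefSeq's gene table. These genes were well above background on all 3 treated arrays, which did not overlap the controls. Of the 12 largest, 11 lay outside the gene lists, and the rises ranged from 8.25 to 11.4. Gpat3, an enzyme of triglyceride synthesis, stood at 4.52, 2.35 and 4.7 on the treated arrays and -5.8, -7.16 and -7.63 on the controls, and was well above background on no control array. It was at least 746-fold higher in treated cells (adjusted p = 6.21e-05, limma), and was called without control arrays 1 and 2 (11.84, 0.00247). Enpep, the aminopeptidase gene whose product is the BP-1 antigen of early B cells, stood at 2.35, -1.64 and 1.7 against -7.32, -7.5 and -7.45, at least 89.9-fold higher (0.00258). Sertad4 was at least 128-fold higher (0.00218). The others were Cecr2 (9.94 ± 1.24), Cplx2 (9.66 ± 1.37), Tmem163 (9.27 ± 1.83), Smtnl2 (9.04 ± 0.92), Reln (8.77 ± 1.47), Col5a3 (8.54 ± 1.23), Nuak1 (8.29 ± 1.45), Il12a (8.28 ± 1.51) and Igll1. Other probes had the opposite sign for 3 of these 12 genes: 2 of the 3 probes of Nuak1 (lowest -0.32), 1 of 2 of Col5a3 (-1.32) and 1 of 3 of Cplx2 (-0.29). Without control arrays 1 and 2, 7 of the 12 were called. Treated array 2 was the lowest treated array for 11 of the 12, the same array that was lowest for the surrogate light chain genes. Tmem163 lost its call without treated array 1 (0.0512) or 3 (0.0621) or control array 1 (0.0836), and Il12a without treated array 3 (0.052) or control array 2 (0.0537).

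The largest falls were chosen by the same rule, with all 3 control arrays well above background, and ranged from -6.85 to -5.78. The lowest difference over all tested genes was -7.81. Mpped2, a metallophosphoesterase gene, stood at -8.58, -7.99 and -7.11 on the treated arrays and 0.01, -0.29 and -0.82 on the controls, was well above background on no treated array and was at least 44.5-fold lower there (adjusted p = 0.000568, limma). Krt82, Nr2f1 and Col15a1 were likewise below that level on every treated array and at least 38.5-fold, 38.4-fold and 17.2-fold lower (0.0191, 0.0186 and 0.00314). Cdr2l fell by 6.21 ± 1.15 (0.0034), with treated array 1 (-3.62) well above treated arrays 2 and 3 (-8.42 and -8.47). Mpped2, Cdr2l and Col15a1 held their calls without any 1 array. The remaining genes, Cnnm1, Susd4, Snx27, 4930519L02Rik, Gria3, Hoxa7 and Myl6b, and Krt82 and Nr2f1, each lost it without at least 3 of the 6 arrays in turn, with adjusted p up to 0.207 for Cnnm1 and 0.195 for Susd4. Of the 12 genes, 8 were tested without control arrays 1 and 2, and limma called none of them (4 at an unadjusted p under 0.05, adjusted p from 0.133 to 0.809). Myl6b had 2 of 3 probes and Snx27 2 of 5 with the opposite sign (up to 2.46 and 1.28). None of the falls called in the gene lists held its call in all 6 fits that left out 1 array.

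The effect in DN cells was set against that in DN1 cells and in total thymocytes by testing the difference of effects. Against DN1 cells, 48 of 22678 genes differed (0.212%), 32 with a positive and 16 with a negative difference (the DN effect minus the DN1 effect), and 2774 had an unadjusted p under 0.05. In DN1 cells alone, with 3 treated and 2 control arrays, 21 of 21956 genes were called (0.0956%). With fewer control arrays than in DN cells, this count cannot be compared directly with the DN count. H2-Aa averaged -1.16 in control and 4.29 in treated DN cells, while control and treated DN1 cells averaged 4.62 and 4.33, a difference of effects of 6.39 ± 0.75 (adjusted p = 0.0138, limma). Ctss went from 2.68 to 6.95 in DN cells and stood at 6.71 and 6.43 in DN1 cells, and Gzmb went from -0.69 to 3.45 and stood at 3.71 and 3.22. For these genes control DN cells were the low group, and the means of treated DN cells lay near those of DN1 cells of either treatment, a likeness that was not tested. Mpped2 went the other way, from -0.37 to -7.89 in DN cells, with control DN1 arrays at -1.39 and -6.7 and a treated DN1 mean of -0.57. Without DN control arrays 1 and 2, 4 genes were called higher and 0 lower (980 at an unadjusted p under 0.05), and H2-DMb2 remained called (7.87, 0.0163) while H2-Aa did not (5.88, 0.0894). Without DN control array 3 the counts were 185 higher and 519 lower, and without treated array 1 or control array 2 they were 0 and 0 (2230 and 1942 at an unadjusted p under 0.05).

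Against total thymocytes, 5 of 22320 genes differed (0.0224%), with 1865 at an unadjusted p under 0.05. In thymocytes alone, with 3 treated and 4 control arrays, 315 of 20917 genes were called (1.51%). Gpat3 had the larger effect in DN cells, from -6.86 to 3.86, against 0.26 to 1.56 in thymocytes (difference of effects 9.76). The B-cell list had a median difference of 3.95 in thymocytes beside 4.66 in DN cells and 0.71 in DN1 cells, and the cytotoxic list 3.85, 3.91 and -0.74. The MHC class II list gave 2.16 in thymocytes, 4.1 in DN cells and -0.28 in DN1 cells. These medians of lists were not tested against each other. Without treated array 1, control array 1 or control array 2 none of the 5 remained called in either direction (1420, 1127 and 1369 genes at an unadjusted p under 0.05), and without control array 3 the counts were 19 higher and 78 lower.

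**Figure D4:**
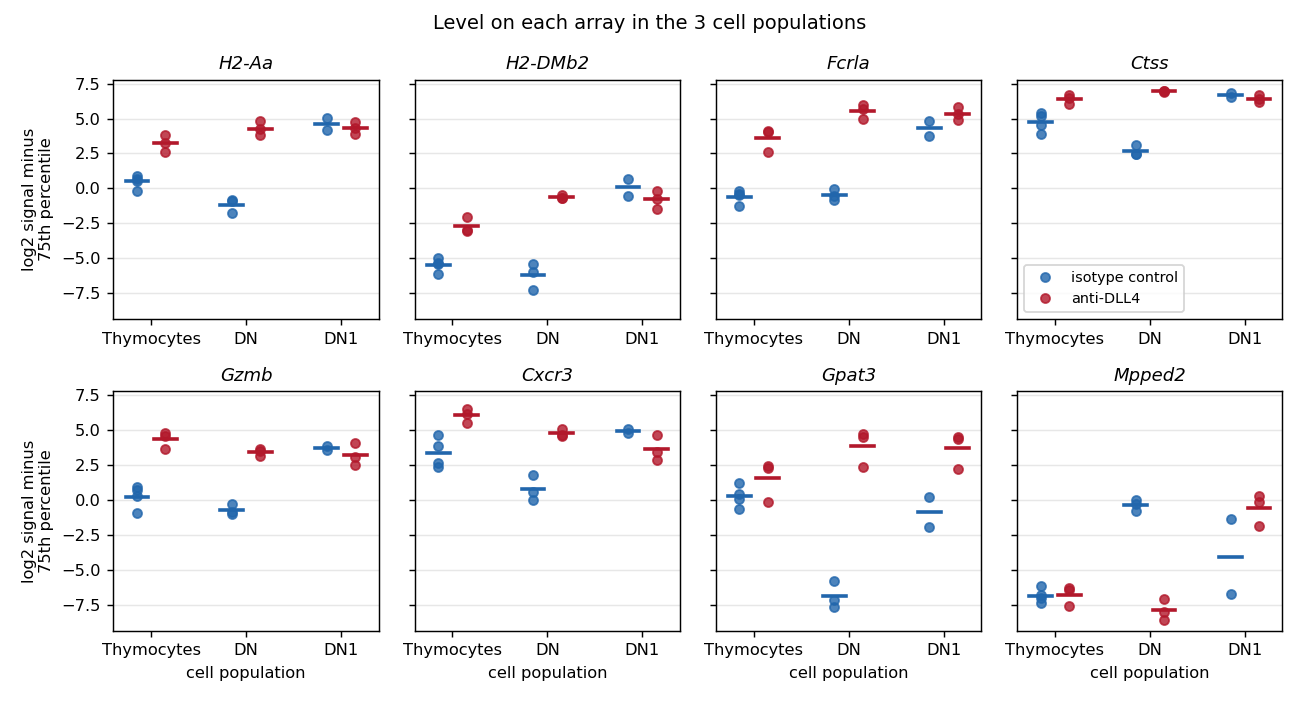
Levels of 8 genes on each array of DN cells, DN1 cells and total thymocytes (y axis, log2 intensity minus the array's 75th percentile; 1 point per array, blue for isotype control and red for anti-DLL4; bars, group means). H2-Aa is lowest in control DN cells (mean -1.16), followed by control thymocytes (0.5), and stands at 4.62 in control DN1 cells.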

How the data were processed

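Each sample is 1 Agilent array. The authors deposited the scanner output, in which each spot has a Cy3 intensity. Per the file headers it was made with Agilent's Feature Extraction software, version 9.5.3.1 (given as 9.5 in the submitters' processing notes), which subtracted background and spatial trend within the array but did not normalize between arrays, with the raw spot and local background intensity and flags of 0 or 1 beside it. A second deposited table gives, for 43225 probes, a ratio on every array. Its log2 values follow the direction of the intensity and its medians per DN array were 0.814, 0.741 and 0.889 (treated) and 1.42, 1.21 and 0.953 (control). What the authors divided by is partly unknown, and the table served only as an alternative.

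Log2 intensities were scaled by subtracting the 75th percentile of each array, computed over its 43537 spots that are not controls, and outlier spots were left out. Spots were averaged into 43426 probes, which were named through accessions (26671), symbols (6957) or older symbols (2960) in RefSeq's gene table (GRCm38.p6), with 6838 keeping the file's name. A gene was given by its brightest probe (25577 genes), and genes that 2 or more of the 6 DN arrays measured well above background were tested. The model was a linear one of the 6 group means over 18 arrays (limma 3.58.1, R 4.3.3, data.table version 1.17.8), with two-sided p-values, Benjamini-Hochberg adjustment over all tested genes and calls at an adjusted p under 0.05. Errors are the model's SE. Differences of effects were contrasts of the same model. Where a gene was well above background on no array of a group, "at least N-fold" sets the brighter mean against, per array, the higher of the gene's own value and the lowest value well above background. The smaller of this fold with and without the median shift is given. The scripts were tested on simulated data. Some genes are not reported here.

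The samples, gene lists and tests were chosen with earlier results of these data known. Named genes were the markers, the 12 largest changes each way, up to 3 called members per list and a set of T-lineage genes. The largest changes were taken among called genes named in the gene table, without overlap between the groups. They also had to be well above background on all 3 arrays of the brighter group. Other list members were named by role after their values were seen. Normalization, background correction, filters, probe rule, array weights, slide, replicate number and left-out arrays were varied.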

Additional observations from a re-analysis of the deposited data

Results flagged for a closer look

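The effect of anti-DLL4 differed between DN and DN1 cells for 48 of 22678 genes (0.212%) by the test of the difference of effects (limma, adjusted p under 0.05). Of these, 21 were named genes. Many named genes were chosen as calls in DN cells, and some for this very difference, so the count of 21 is no independent support. The difference, DN effect minus DN1 effect on the log2 scale, was positive for Clec10a (7.92), Cd55 (7.51), H2-DMb2 (7.12), Klra8 (6.83), Klra9 (6.82), H2-Aa (6.39), Cxcr3 (5.97), Cxcr5 (5.91), Fcrla (5.63), H2-Eb1 (5.33), Gzmb (5.27), Cd83 (5.23), H2-Ab1 (5.2), Ctss (5.18), Ctsh (4.71), Tgfbr2 (4.53) and Lyz1 (4.37). It was negative for Firre (-2.94), Avil (-9.3), Mpped2 (-10.36) and Slc38a11 (-10.6). Klra8 and Klra9 are near-identical members of 1 receptor family, so their probes may read the same RNA. Clec10a, a lectin of dendritic cells and macrophages, stood at 0.7, 1.54 and 0.76 on treated and -6.86, -6.74 and -3.82 on control DN arrays, and at 1.3 and 1.16 on control DN1 arrays. Cd55, a complement regulator, stood at 1.92 to 2.68 on treated and -5.2 to -3.68 on control DN arrays, and at 2.28 and 2.23 on control DN1 arrays. In DN cells, 1 of the 3 probes of Cd55 had the opposite sign (-2.74). Against total thymocytes, Gpat3 had a difference of effects of 9.76.

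These calls were sensitive to the arrays and settings used. Over 10 settings, H2-Aa and H2-DMb2 were called in 6, Mpped2 in 4, and the others in 1 to 3. Without DN control arrays 1 and 2, H2-DMb2 alone of the 22 kept its call (7.87, adjusted p = 0.0163), with H2-Aa at 5.88 (0.0894) and Gpat3 at 10.06 (0.121).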

How the results depend on the processing

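In each alternative that limma tested, the called genes still measured kept their sign, except that 569 of the 570 rises did so with normexp background correction and 567 with the mean over probes. The counts moved. Against 570 higher and 326 lower, there were 922 higher with quantile normalization, 210 and 108 with the 6 DN arrays alone, 3350 and 9156 with array weights, 281 and 213 with the slide as a block, 120 lower among genes well above background on all 6 arrays, and 128 and 5 without control arrays 1 and 2, which kept 97 of the 570 and 3 of the 326 and assumed the lone control array to vary like the other groups. The weights used the gene-by-gene method, chosen after seeing the data because the default did not converge, and gave DN control array 2 a weight of 14.7. Leaving out 1 array gave 289 to 1327 higher and 63 to 4486 lower, both highest without control array 3. With the replicate number as a block limma called 0 and 0 (4258 at an unadjusted p under 0.05), and deviations of same-numbered arrays had correlations of -0.18, 0 and -0.04, so the numbers were not taken to pair the samples. For the difference from thymocytes (2 higher, 3 lower), quantile normalization gave 4 higher, normexp 4 and 5, the slide block 0 and 0 (2009 unadjusted), left-out arrays 0 to 19 and 0 to 78, and leaving out control arrays 1 and 2 gave 0 and 0 (807). For the difference from DN1 cells (32 and 16), the same settings gave 78 higher, 9 and 0 (2293), 0 and 0 (3962), 0 to 185 and 0 to 519, and 4 and 0 (980). Within slide 3, with 1 array per group, the called genes Notch3 (0.37), Ptcra (0.06) and Aqp11 (0.09) turned sign. So did the uncalled genes Dtx1 (0.43), Gata3 (0.7), Bcl11b (1.7), Lck (1.53), Dntt (0.03) and Mcm7 (0.13). With the mean over probes, Prss16 turned sign (-0.48). The cause of these shifts was not tested. The median over tested genes moved from -0.68 to -0.13 with quantile normalization, -0.93 when scaled to probes bright on all 18 arrays, -0.17 when centred and -1.06 with normexp. The signs of 6 of 33 list medians turned without control arrays 1 and 2. The number of arrays limits the precision. Signal over background limits the falls, since 122 of the 326 were well above background on no treated array.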

Other observations

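Genes of antibody-producing B-lineage cells, which were in none of the lists and were picked after their values were seen, were among those called both with all 6 arrays and without control arrays 1 and 2. Jchain, which joins polymeric antibodies, stood at 4.64, 6.19 and 4.45 on the treated arrays and 0.91, -0.15 and -3.33 on the controls, a rise of 6.63 ± 0.88 (adjusted p = 0.00145, limma). Mzb1, a chaperone of antibody assembly, stood at 5.61, 4.97 and 6 against -0.08, 0.37 and 0.65 (5.89 ± 0.51, 0.000131). Iglv1, a lambda light chain variable gene, stood at 7.63, 7.55 and 7.41 against 2.78, 2.55 and 0.6 (6.23 ± 0.73, 0.000556), and Sdc1, the CD138 gene of plasma cells, rose by 4.79 ± 0.63 (0.00205). Sdc1 stood at 1.28, 1.14 and 1.82 against -2.38, -2.09 and -3.63. On all 3 treated arrays each of these 4 genes lay above every control, as did 9.64% of all genes and 569 of the 570 called rises. Iglv1 belongs to a family of near-identical genes whose RNAs its probe may not tell apart. Xbp1, the secretory-cell factor, overlapped between the groups (0.63 ± 0.44, adjusted p = 0.949, limma). Lyn, a kinase gene active in B cells and myeloid cells, rose by 5.33 ± 0.51 (0.000207).

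The treated arrays differed among themselves by gene group. Averaged over the lists, treated arrays 1, 2 and 3 stood at 4.8, 2.8 and 4.66 for B-cell precursors, 3.49, 4.6 and 3.73 for MHC class II, 2.24, 3.07 and 1.71 for the pre-T receptor, CD3 chains and kinases, and -3.38, -5.9 and -4.89 for neutrophil granules. Treated array 2 was the lowest of the 3 for precursor and neutrophil genes and the highest for MHC class II and pre-T receptor genes. These differences within the group were not tested.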
